A study of Mus musculus with 18 samples.

Results

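The genes described are 46 imprinted genes of the mouse, taken as a fixed list of symbols and matched to Ensembl identifiers in a count table of 47643 genes. The list was drawn up because 1 of its genes, Peg10, moved in opposite directions with the 2 hairpins of the study, so the list was chosen by the fold changes of Peg10 against control, which are given here as a description with no test. The other 45 genes were counted and tested apart from it. An imprinted gene is expressed mainly from the copy inherited from 1 parent, because DNA methylation laid down in the egg or the sperm marks a control region near it and is kept through later cell divisions. Many imprinted genes lie in clusters, encode regulators of fetal and placental growth or untranslated RNAs that silence their neighbours, and are imprinted only in some tissues. Loss or gain of expression at such clusters is a well known feature of tumours. The tables hold 1 value per gene, so the parental copy that was read cannot be told from them, and the words paternal and maternal below are textbook labels.

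RNA was measured in MPC3, a mouse prostate cancer cell line whose genotype the labels do not give, in 18 libraries. The 6 control libraries carry the name plko, a lentiviral hairpin vector, and what the control vector encodes is not stated. The other groups, of 6 libraries each, carried the short hairpin RNA shRNF185.1 or shRNF185.3, which target Rnf185, a gene for a ubiquitin ligase of the endoplasmic reticulum membrane. Libraries 1 and 2, 3 and 4, and 5 and 6 of every group form batches 1, 2 and 3 in the labels.

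Totals ran from 22027395 to 43379662 counts per library. Rnf185 itself ran from 33.6 to 38.4 CPM (the deposited counts scaled by library size) in control and from 5.19 to 6.80 CPM over both hairpins, so the knockdown was present in every library. Here and below a gene was called where its difference passed an adjusted p of 0.05 in edgeR's quasi-likelihood test over 14309 genes, and a change is a log2 fold change with its standard error (SE). The markers of prostate luminal epithelium were partly present, with 7 of 12 above 1 CPM in control and Pbsn, which encodes probasin, at 0 in every library. Their summed level was 1870 to 2710 CPM in control, 1200 to 1960 CPM under shRNF185.1 and 1350 to 1560 CPM under shRNF185.3. Basal markers, 4 of 5 above 1 CPM in control, summed to 25.9 to 39.9 CPM in control, 19.6 to 29.8 CPM under shRNF185.1 and 21.9 to 28.9 CPM under shRNF185.3. Krt14 gave most of that sum and fell with shRNF185.1 only (log2 fold change -0.49, adjusted p 0.0283). Trp63 rose with both hairpins (0.64 and 0.76, adjusted p 0.0195 and 0.00702), while Itgb4 fell with both (-1.44 and -1.45, adjusted p 0.00223 and 0.0024). Krt15 was not called, and Krt5 had 10 counts in all. For fibroblasts and stroma, 6 of 8 were above 1 CPM, and the sums were 3090 to 4100, 3690 to 4270 and 3840 to 4470 CPM in control, shRNF185.1 and shRNF185.3. Of these, the collagen gene Col1a1 rose by log2 fold changes of 1.29 and 2.19 (adjusted p 0.00223 and 1.9e-05) and the growth factor receptor gene Pdgfrb by 0.36 and 0.58 (adjusted p 0.00115 and 9.29e-06). Dcn of the same list fell with shRNF185.1, as given further on. Pdgfra and Acta2 were called with shRNF185.3 only (0.46 and 1.98, adjusted p 9.31e-05 and 0.00256). Vim gave most of the stromal sums, at a control mean of 3200 CPM. It was not called (log2 fold changes 0.06 and 0.07, adjusted p 0.486 and 0.454). Immune markers were at 1.84 to 5.16 CPM with Cd3e at 0, and endothelial markers at no more than 0.785 CPM. The luminal sum and the called basal and stromal genes moved with at least 1 hairpin, and their part in the results below was not tested. In bulk RNA, fewer cells of a kind and less RNA per cell cannot be told apart.

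Short stretches of DNA just upstream of transcription start sites are shown for 3 loci that moved, for the partner RNA of 1 of them and for a silent cluster, because CpG sites are where the methyl mark of an imprint sits. They come from RefSeq on GRCm38.p6, are written 5′ to 3′ on the strand given, stop before the RefSeq start they belong to, and carry each CpG in capitals. Grb10 (chr11:12037421-12037670, minus strand, 40 CpG in 250 bases), whose start lies inside the annotated gene, fell with shRNF185.1. Dio3 (chr12:110278980-110279067, plus strand, 10 CpG in 88 bases) rose with both hairpins. Igf2r (chr17:12769707-12769956, minus strand, 27 CpG in 250 bases) rose with shRNF185.1, while Airn (chr17:12741061-12741310, plus strand, 2 CpG in 250 bases), which starts inside Igf2r on the other strand, was not called. The stretch between the starts of Peg3 and Usp29 (chr7:6730432-6730577, plus strand, 5 CpG in 146 bases) belongs to a cluster with hardly a read. Whether any of these stretches lies in the control region of an imprint was not examined.
Grb10: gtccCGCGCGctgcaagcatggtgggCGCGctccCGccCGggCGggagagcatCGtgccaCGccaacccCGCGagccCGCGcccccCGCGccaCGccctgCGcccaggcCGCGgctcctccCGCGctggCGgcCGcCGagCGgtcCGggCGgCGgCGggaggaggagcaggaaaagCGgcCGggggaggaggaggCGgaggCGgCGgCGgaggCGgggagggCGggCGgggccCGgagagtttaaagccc
Dio3: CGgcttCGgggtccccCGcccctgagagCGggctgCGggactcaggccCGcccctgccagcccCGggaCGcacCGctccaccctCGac
Igf2r: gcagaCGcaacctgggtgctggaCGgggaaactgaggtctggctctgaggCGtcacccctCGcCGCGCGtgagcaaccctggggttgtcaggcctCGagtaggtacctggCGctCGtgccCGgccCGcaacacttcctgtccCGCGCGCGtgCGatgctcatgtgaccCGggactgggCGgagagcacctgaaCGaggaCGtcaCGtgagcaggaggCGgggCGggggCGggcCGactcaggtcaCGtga
Airn: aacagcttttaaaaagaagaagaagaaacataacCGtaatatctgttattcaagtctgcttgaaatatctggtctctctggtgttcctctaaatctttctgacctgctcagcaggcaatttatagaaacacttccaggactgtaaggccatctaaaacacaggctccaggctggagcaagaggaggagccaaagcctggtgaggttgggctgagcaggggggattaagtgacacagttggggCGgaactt
Peg3-Usp29: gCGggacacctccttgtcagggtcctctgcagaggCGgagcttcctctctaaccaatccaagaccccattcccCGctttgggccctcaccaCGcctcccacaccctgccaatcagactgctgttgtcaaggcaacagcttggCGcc

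Promoter windows of 300 bases were on hand for 35 of the 46 symbols, in 52 windows. Their median CpG count was 14.5, against 7.0 over the 32851 windows of all genes. The hexamer TGCCGC, which the imprint protector ZFP57 binds in its methylated form, was searched on both strands. It was found in 12 member windows, or 23.1% of them, against 11.6% of all windows. The hexamer itself holds a CpG and the member windows are richer in CpG, which these shares do not take into account. Overlapping windows of the same gene were counted apart. The 11 symbols with a match were Commd1, Copg2, Grb10, Igf2, Mcts2, Meg3, Mest, Nnat, Plagl1, Snrpn and Zim1. Of these, Grb10, Mcts2 and Commd1 were called in at least 1 comparison below, where 42.0% of all genes tested were. Copg2, Mest, Nnat, Plagl1 and Snrpn were tested and not called, and Igf2, Meg3 and Zim1 were not tested. Dio3 and Igf2r had no match. Methylation was not measured, and a match of letters is a description of the window and no evidence of binding.

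Of the 46 genes, 26 had counts high enough to be tested and 20 did not pass the filter on low counts. The 20 that did not pass had at most 22 counts in any library, and 15 of them had fewer than 20 counts over all 18 libraries together. Zim1, Klf14, Ndn, Magel2 and Kcnk9 had 0 counts in every library, which at these depths allows up to 0.0701 to 0.133 CPM per library, counting error only. Whole clusters were without a testable gene. At the Peg3 cluster, which holds the zinc finger gene Peg3 and the ubiquitin protease gene Usp29, the totals were 4 counts for Peg3 and 2 for Usp29. At the growth factor locus Igf2-H19, Igf2 had 4 counts in all and the untranslated RNA H19 had 91, spread from 0 to 22 per library. Of the windows of 75 bases in the transcripts of Igf2, 60.25% also occur in Gm49394, an annotated gene that overlaps it on the same strand. Reads from those windows may have been counted to that gene, so the level of Igf2 may be understated. The Ras exchange factor gene Rasgrf1 had 10 counts and the amino acid transporter gene Slc38a4 had 106.

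The cluster between Dlk1 and Dio3 on chromosome 12 was read from 1 end only. Dlk1, a Notch-like ligand, had 2 counts in all, and the maternal untranslated RNAs Meg3, Rian and Mirg had 3, 13 and 66. Rtl1, a retrotransposon-derived gene of the placenta, had 15 counts, while Dio3 at the far end was tested. Phlda2, Slc22a18 and Ascl2 of the Kcnq1 domain had 53, 38 and 2 counts, and Peg12 had 7. The 20 genes divide evenly by textbook parental label, 10 paternal and 10 maternal.

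**Figure D1:**
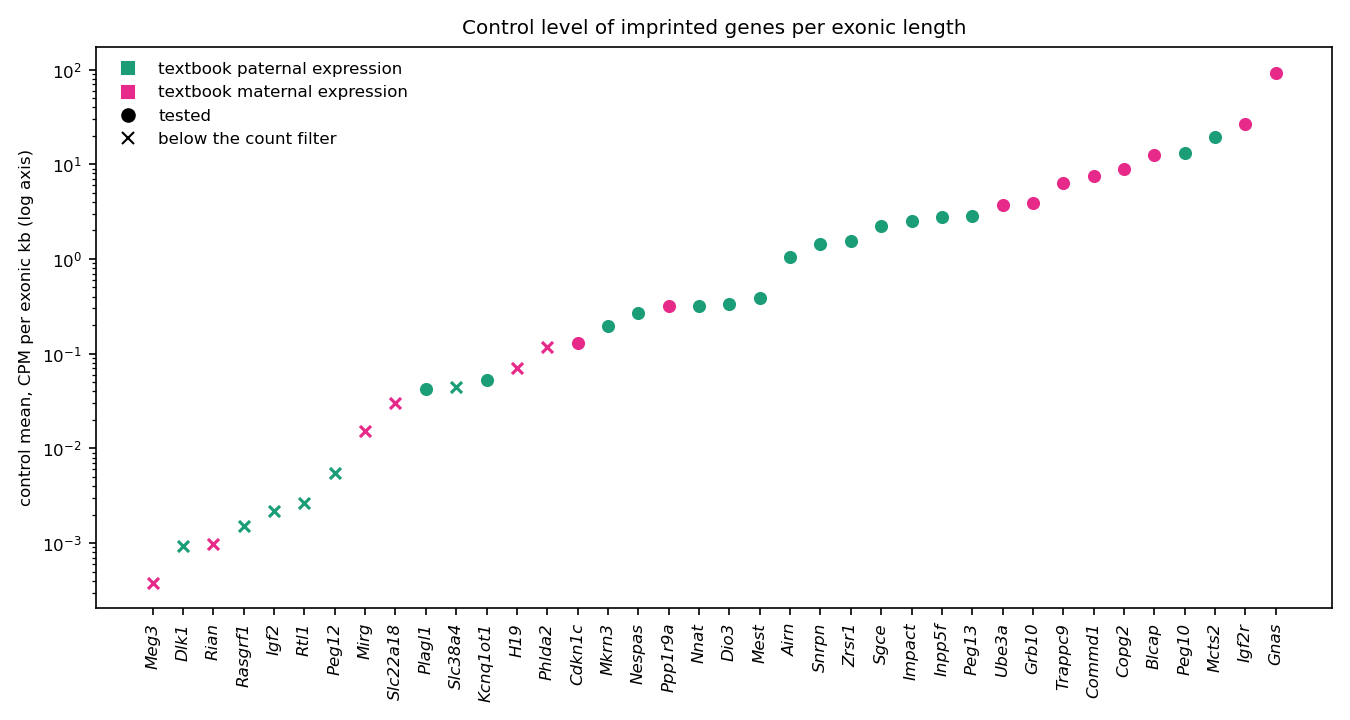
Mean level in the 6 control libraries, in CPM per kilobase of exon on a log axis, of the imprinted genes with a control mean above 0, coloured by the textbook parental label. Crosses are genes below the count filter, circles are tested genes, and Gnas stands highest at 93.0 CPM per kilobase.

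Among the tested genes, control levels per exonic kilobase spread over more than 3 orders on the log axis of the plot of control levels. Gnas, which encodes the stimulatory G protein alpha subunit, was highest at 93.0 CPM per kilobase. Igf2r followed at 26.5, Mcts2 at 19.6, Peg10 at 13 and Blcap at 12.5 CPM per kilobase. The lowest were Kcnq1ot1 at 0.0525 and Plagl1 at 0.0426 CPM per kilobase. In control, 20 of the 46 genes averaged above 1 CPM and 14 above 10 CPM.

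Peg10 encodes a protein derived from the gag and pol genes of a retrotransposon and is needed for the placenta. It lies on chromosome 6 from 4747306 to 4760517 (GRCm38, plus strand). Its lowest, median and highest levels were 67.8, 86.3 and 104 CPM in control, 44.6, 52.8 and 61.1 CPM under shRNF185.1 and 161, 208 and 252 CPM under shRNF185.3. Every shRNF185.1 library lay below every control library, and every shRNF185.3 library above. The log2 fold change was -0.73 (SE 0.11) with shRNF185.1 and 1.23 (SE 0.11) with shRNF185.3, or 0.602 and 2.34 times control. Within batches 1, 2 and 3 the log2 differences from control were -0.61, -0.60 and -0.96 with the first hairpin and 1.29, 1.38 and 1.00 with the second. Over all genes tested, 71 were called in opposite directions with the 2 hairpins, or 0.496%, and Peg10 is among them by the way the list was drawn up. Of the other 25 tested imprinted genes, 0 were. Both comparisons use the same 6 control libraries.

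Sgce, which encodes epsilon-sarcoglycan of the muscle and nerve cell membrane, shares its start region with Peg10. The starts lie 99 bases apart on opposite strands, and Sgce runs from 4674350 to 4747207. The lowest, median and highest Sgce levels were 21.3, 23.6 and 27.0 CPM in control, 26.2, 28.2 and 30.9 CPM under shRNF185.1 and 31.9, 36.8 and 44.3 CPM under shRNF185.3. The shRNF185.3 libraries lay above all others, while shRNF185.1 overlapped control. Sgce rose with shRNF185.3 by a log2 fold change of 0.68 (SE 0.07, adjusted p 2e-06), the direction of Peg10. With shRNF185.1, where Peg10 was lower, Sgce was higher by 0.26 (SE 0.07, adjusted p 0.0135). That second difference was uneven over batches, at 0.29, 0.04 and 0.46, and its adjusted p was 0.145 without batch 1 and 0.136 without batch 3. The hairpins differed from each other by 0.42 (SE 0.07, adjusted p 0.000672).

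Ppp1r9a encodes neurabin, a scaffold that ties protein phosphatase to actin, and is maternal in the placenta. It starts 156 kb beyond Peg10. Across the 6 libraries of each group, its lowest, median and highest levels were 4.18, 4.38 and 5.58 CPM in control, 3.03, 3.74 and 4.64 CPM under shRNF185.1 and 2.52, 3.14 and 3.85 CPM under shRNF185.3. Only the shRNF185.3 libraries lay apart from control. Ppp1r9a fell by 0.55 on the log2 scale with shRNF185.3 (SE 0.14, adjusted p 0.00567), against the direction of Peg10, and the adjusted p was 0.0513 without batch 2. With shRNF185.1 the log2 fold change was -0.29 (SE 0.14, adjusted p 0.12). It passed the threshold in 3 alternatives: with a GC and length offset (-0.36, adjusted p 0.0291), with the replicate block beside that offset (adjusted p 0.0273), and with the libraries of a group and batch summed (-0.26, adjusted p 0.0282). Summed in that way, the hairpins differed by -0.27 (adjusted p 0.0469).

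The stretch of 1000000 bases on either side of the start of Peg10 holds 39 genes of the table, of which 10 besides Peg10 were tested. In shRNF185.1 against control 5 of the 10 were called, 3 higher and 2 lower, where 28.9% of all genes were called. In shRNF185.3 against control 7 of the 10 were called, 4 higher and 3 lower, where 27.3% of all genes were. Col1a2, a collagen gene that starts 242 kb before Peg10, had the same opposite signs as Peg10. Its medians were 369 CPM in control, 245 CPM under shRNF185.1 and 556 CPM under shRNF185.3, and none of the 3 groups overlapped. Its log2 fold changes were -0.56 (SE 0.13, adjusted p 0.00306) and 0.55 (SE 0.13, adjusted p 0.00379).

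Casd1, a sialic acid acetyltransferase gene between Col1a2 and Sgce, was not called and stood at -0.03 and 0.03 (log2 fold changes, SE 0.08 each) with shRNF185.1 and shRNF185.3. The paraoxonase genes on the other side moved the same way with both hairpins. Pon3 rose by 0.44 and 0.37 (adjusted p 0.000119 and 0.000719), and Pon2 fell by 0.26 and 0.35 on the log2 scale (adjusted p 0.000911 and 7.1e-05). Gm44250, a predicted gene near Pon3, rose by 0.46 and 0.33 (adjusted p 0.000803 and 0.0107). Without batch 1 its adjusted p was 0.0638 and 0.108, and without batch 3 that of shRNF185.3 was 0.0541. Asb4, a subunit of a ubiquitin ligase that is maternal in mouse, had log2 fold changes of -0.61 (adjusted p 0.0691) and -0.83 (adjusted p 0.0182), and the second had an adjusted p of 0.0823 without batch 2 and 0.166 without batch 3. The first, fitted with the replicate block, was -0.59 (adjusted p 0.0453), or -0.55 (adjusted p 0.0482) with a GC and length offset added. Bet1 and Gng11, a vesicle fusion gene and a G protein gamma subunit gene, were not called, with log2 fold changes from -0.05 to 0.46, although Gng11 with shRNF185.1 reached 1.13 (adjusted p 0.00682) without batch 2. Of these 10 genes, 2 (Col1a2 and Sgce) differed between the hairpins, against 14.7% of all genes.

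**Figure D2:**
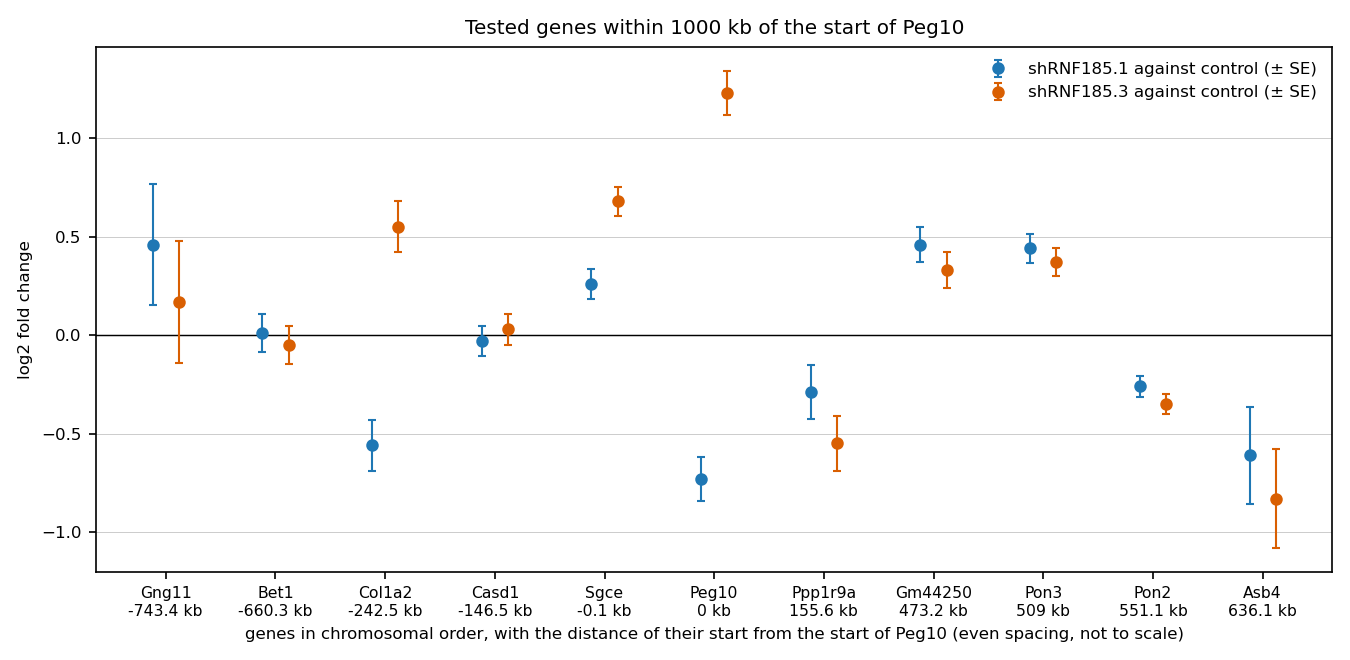
Log2 fold changes against control, with their standard errors, of Peg10 and the 10 other tested genes within 1000 kb of its start, in chromosomal order with even spacing. Peg10 and Col1a2 lie on opposite sides of 0 with the 2 hairpins, and Sgce lies above 0 with both.

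With shRNF185.1, 11 of the 25 tested imprinted genes other than Peg10 were called against control, 5 higher and 6 lower. That is 44.0%, where the share over all 14309 genes tested was 28.9% (14.6% higher and 14.3% lower). The 11 include Cdkn1c, which would not have passed the count filter without the shRNF185.1 libraries. The median log2 fold change of the 25 genes was -0.01, against -0.017 over all genes. Without batch 1, 6 were called, and leaving out batch 2 or batch 3 gave 14 and 8, where 15.5%, 35.7% and 20.3% of all genes were called without batches 1, 2 and 3. The paternal genes gave 6 calls of 15, and the maternal genes 5 of 10.

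Dio3 (chromosome 12, 110279068 to 110281097, plus strand) encodes the deiodinase that inactivates thyroid hormone. Its lowest, median and highest levels were 0.372, 0.750 and 0.879 CPM in control, 1.90, 2.67 and 2.87 CPM under shRNF185.1 and 1.16, 1.48 and 3.20 CPM under shRNF185.3. Both hairpin groups lay wholly above control and overlapped each other. Dio3 rose by a log2 fold change of 1.87 (SE 0.24, adjusted p 1.13e-05) with shRNF185.1, or 3.67-fold, and of 1.32 (SE 0.25, adjusted p 0.000511) with shRNF185.3, or 2.49-fold. By batch, in order, the rise was 1.71, 2.18 and 1.44 under shRNF185.1 and 0.84, 2.10 and 0.55 under shRNF185.3, the latter 0.75 with batch 2 left out. These are low levels, and on a scale of log2(CPM + 1), which understates low genes, the differences were 1.07 and 0.65. The hairpins differed by -0.56 (SE 0.22, adjusted p 0.11), and by -0.93 (adjusted p 0.00228) without batch 2, which holds the shRNF185.3 library at 3.20 CPM.

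Grb10 (chromosome 11, 11930508 to 12038683, minus strand) encodes an adaptor that damps signalling from the insulin and insulin-like growth factor receptors. Grb10 ran at lowest, median and highest levels of 31.7, 35.3 and 39.7 CPM in control, 20.8, 22.9 and 29.3 CPM under shRNF185.1 and 33.0, 37.4 and 41.7 CPM under shRNF185.3. The shRNF185.1 libraries lay below all others. Grb10 fell by 0.58 on the log2 scale with shRNF185.1 (SE 0.08, adjusted p 3.53e-05), and within batches 1, 2 and 3 the difference was -0.58, -0.69 and -0.47. With shRNF185.3 the log2 fold change was 0.08 (SE 0.08, adjusted p 0.514), and the hairpins differed by 0.66 (SE 0.08, adjusted p 2.04e-05). The called differences kept their side of the threshold in the 15 alternatives tried.

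Impact encodes an inhibitor of the amino acid sensor kinase GCN2. Lowest, median and highest levels of Impact were 8.73, 12.9 and 17 CPM in control, 5.85, 8.05 and 8.69 CPM under shRNF185.1 and 11.6, 14.4 and 16.5 CPM under shRNF185.3. The highest shRNF185.1 library was just below the lowest control library. Impact fell by 0.78 on the log2 scale with shRNF185.1 (SE 0.14, adjusted p 0.000279), at -0.87, -0.43 and -0.99 within the batches. With shRNF185.3 the log2 fold change was 0.15 (SE 0.13, adjusted p 0.455), and the hairpins differed by 0.92 (SE 0.14, adjusted p 0.000126). Both calls were kept in the 15 alternatives.

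Cdkn1c (chromosome 7, 143458339 to 143461050, minus strand) encodes p57, an inhibitor of cyclin-dependent kinases. In order of lowest, median and highest, Cdkn1c stood at 0.0997, 0.227 and 0.454 CPM in control, 0.232, 0.675 and 0.761 CPM under shRNF185.1 and 0.133, 0.322 and 0.393 CPM under shRNF185.3. All 3 groups overlapped, with 4 of the shRNF185.1 libraries above every control library in the plot of levels per library. The log2 fold change with shRNF185.1 was 1.08 (SE 0.36, adjusted p 0.0291). This call was lost without batch 1 (0.64, adjusted p 0.378), with batch as a covariate (adjusted p 0.0511) and with no count filter (adjusted p 0.0572). Cdkn1c had 186 counts over all libraries, and 30.65% of its exonic length lies opposite the predicted gene Gm44732. Counts per library were 3 to 14 in control, 6 to 21 under shRNF185.1 and 3 to 11 under shRNF185.3. Outside the shRNF185.1 group, too few libraries reached the level that the filter sets from a minimum count of 10. Cdkn1c thus would not have entered the test without the group where it was high, and its call is no independent support.

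Igf2r (chromosome 17, 12682406 to 12769664, minus strand) encodes the receptor that carries lysosomal enzymes and clears the growth factor IGF2. It was named after its values were seen because its log2 fold change of 0.4954 just missed the naming threshold of 0.5. Its lowest, median and highest levels were 210, 242 and 303 CPM in control, 282, 355 and 399 CPM under shRNF185.1 and 246, 263 and 311 CPM under shRNF185.3. The shRNF185.1 libraries overlapped control at their lower end. Igf2r rose with shRNF185.1 (SE 0.09, adjusted p 0.000519), by 0.58, 0.40 and 0.52 within the batches. With shRNF185.3 the log2 fold change was 0.12 (SE 0.09, adjusted p 0.375). The hairpins differed by -0.38 (SE 0.09, adjusted p 0.0091), with an adjusted p of 0.206 without batch 1 and 0.054 without batch 2. Airn, the paternal RNA that runs over the Igf2r promoter and silences it, had medians of 3.43, 4.12 and 4.03 CPM and was not called (log2 fold changes 0.21 and 0.03, SE 0.23 each). Without batch 2, Airn with shRNF185.1 stood at 0.65 (adjusted p 0.0278).

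**Figure D3:**
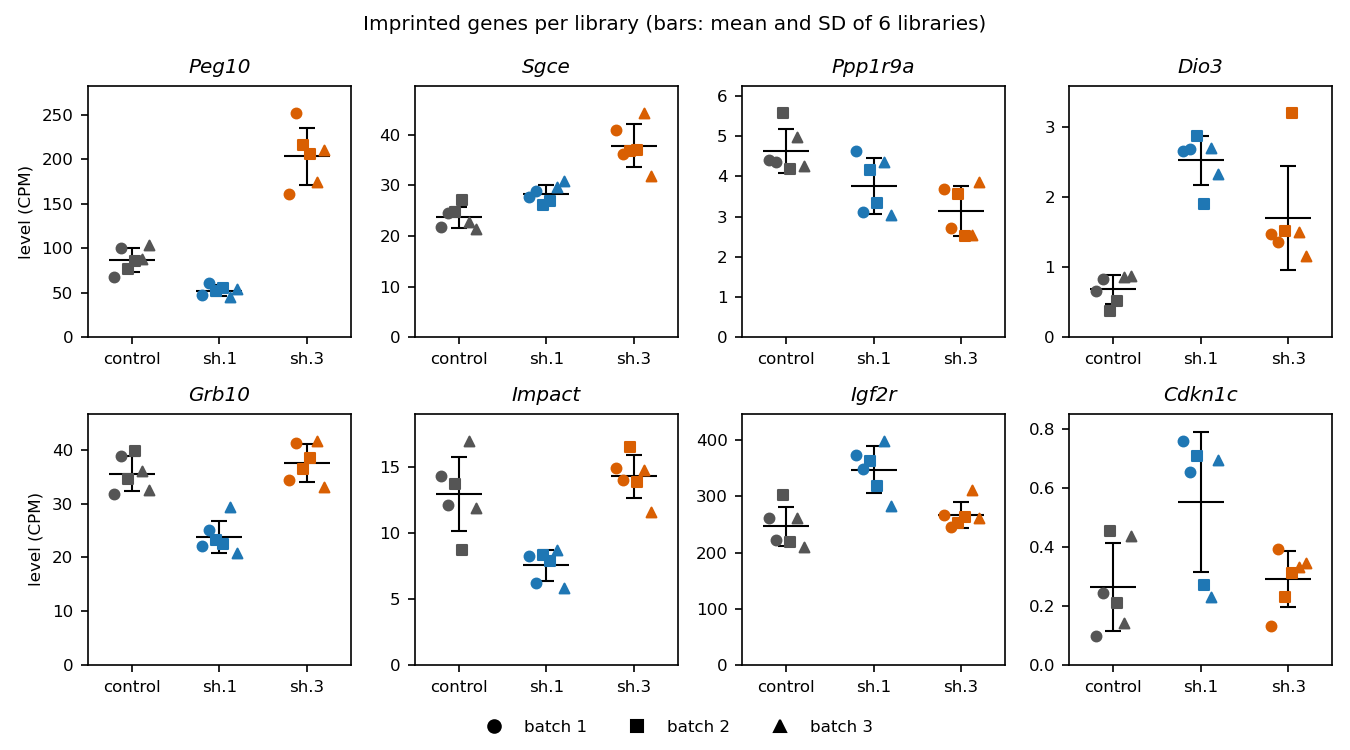
Level in CPM of 8 imprinted genes in each library of the control, shRNF185.1 (sh.1) and shRNF185.3 (sh.3) groups, with symbols for the 3 batches and bars for the mean and SD of 6 libraries. Peg10 separates the 3 groups, Grb10 and Impact are low with shRNF185.1 only, and Dio3 is above control with both hairpins.

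With shRNF185.3, 6 of the 25 genes were called against control, 2 higher and 4 lower. That is 24.0%, against 27.3% of all genes tested (14.2% higher and 13.1% lower), and the median log2 fold change was 0.03 against -0.019. The paternal genes gave 4 calls of 15, and the maternal genes 2 of 10. Sgce and Dio3 were called higher with both hairpins, and Blcap and Mcts2 lower with both.

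Blcap, a gene for a small membrane protein with a reported part in growth arrest, ran at a lowest, median and highest level of 36.2, 37.4 and 41.0 CPM in control, 30.6, 31.9 and 33.1 CPM under shRNF185.1 and 27.5, 29.2 and 31.5 CPM under shRNF185.3. Both hairpin groups lay wholly below control. Blcap fell by 0.25 (SE 0.04, adjusted p 0.000322) and by 0.37 (SE 0.04, adjusted p 5.71e-06) on the log2 scale. Nnat, a brain proteolipid gene that sits inside an intron of Blcap on the other strand, was at medians of 0.576, 0.422 and 0.553 CPM and was not called. Its log2 fold changes were -0.53 (SE 0.22, adjusted p 0.0776) and -0.12 (SE 0.21, adjusted p 0.708), and the first reached -0.79 (adjusted p 0.0286) without batch 2.

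Mcts2, a retrogene copy of a translation reinitiation factor, had medians of 17.9 CPM in control, 14.3 CPM under shRNF185.1 and 15.1 CPM under shRNF185.3. Each hairpin group overlapped control. Its log2 fold changes were -0.34 (SE 0.07, adjusted p 0.00169) and -0.25 (SE 0.07, adjusted p 0.0159), but the second was 0.01 within batch 2. Without batch 1 the adjusted p was 0.11 and 0.154, and without batch 3 that of shRNF185.3 was 0.265. None of the 838 windows of 75 bases in its exons occurs in another gene of the annotation.

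At the nested pair Peg13 and Trappc9, Peg13 is a paternal RNA inside an intron of Trappc9, which encodes a subunit of a trafficking complex. Peg13 had medians of 13.3, 14.7 and 11.6 CPM in control, shRNF185.1 and shRNF185.3, and the shRNF185.3 libraries lay below every shRNF185.1 library. Its log2 fold change was 0.10 under shRNF185.1 (adjusted p 0.385). Under shRNF185.3 it was -0.24 (adjusted p 0.0362), with -0.04, -0.51 and -0.16 within batches 1, 2 and 3. The second call was lost in 7 of 15 alternatives, among them without batch 2 (-0.10, adjusted p 0.426), without batch 3 (adjusted p 0.0768) and with the replicate block (adjusted p 0.0641). The hairpins differed by -0.34 (adjusted p 0.00782), or 0.118 as adjusted p without batch 1. Trappc9 was not called in any of the 3 comparisons (log2 fold changes -0.11 to 0.13), although it reached 0.29 with shRNF185.1 (adjusted p 0.012) without batch 2.

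At the other nested pair, Zrsr1, a splicing factor retrogene, lies inside Commd1, which encodes a protein of copper handling and endosomal sorting. Zrsr1 had medians of 7.04, 8.31 and 6.74 CPM in control, shRNF185.1 and shRNF185.3, with the shRNF185.1 libraries wholly above control. The log2 fold change with shRNF185.1 was 0.28 (adjusted p 0.0118), and the adjusted p was 0.0652, 0.056 and 0.057 with batches 1, 2 and 3 left out in turn. The hairpins differed in Zrsr1 by -0.26 (adjusted p 0.0322, 0.333 without batch 1 and 0.187 without batch 2). Commd1 had medians of 44.9, 48.6 and 39.6 CPM and was called between the hairpins only, at -0.27 (adjusted p 0.00542, 0.126 without batch 1). With the replicate block Commd1 was also called in shRNF185.3 against control (-0.16, adjusted p 0.0268, against 0.0706 without the block). The exons of the pair overlap on opposite strands over 9.17% of the length of Zrsr1, and how strand was used in counting is not given in the sources used here.

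Inpp5f encodes a phosphoinositide phosphatase, of which a brain variant is imprinted, and the gene-level table does not separate variants. Its medians were 22.9, 19.7 and 22.5 CPM in control, shRNF185.1 and shRNF185.3, and the shRNF185.1 libraries lay below all others. Inpp5f fell by 0.24 on the log2 scale with shRNF185.1 (SE 0.05, adjusted p 0.00218). The hairpins differed by 0.19 (adjusted p 0.0215), with an adjusted p of 0.18 without batch 1 and 0.207 without batch 2.

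In the Prader-Willi and Angelman region of chromosome 7, Ube3a, a ubiquitin ligase gene that is maternal in neurons, had medians of 74.1, 63.1 and 71.1 CPM in control, shRNF185.1 and shRNF185.3. All 3 groups overlapped. The log2 fold change with shRNF185.1 was -0.24 (SE 0.09, adjusted p 0.0402) and 0.01 within batch 2, a call lost in 6 of 15 alternatives, with an adjusted p of 0.235 without batch 1, 0.299 without batch 3 and 0.0503 with the replicate block. Exons of Snhg14 and other genes lie opposite 27.27% of its length. Snrpn, a spliceosome gene that shares its transcript with Snurf, had medians of 3.0, 2.7 and 3.12 CPM, and Mkrn3, a zinc finger gene of puberty timing, had medians of 0.498, 0.374 and 0.647 CPM. Neither was called.

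The other tested genes gave no call in any of the 3 comparisons with the fit used throughout. Gnas ran from 908 to 1160 CPM over the 18 libraries, with log2 fold changes of 0.01 and 0.05 (SE 0.05 each), and its antisense RNA Nespas had log2 fold changes of 0.02 and 0.04 (SE 0.16 each). Copg2, a vesicle coat gene, stood at -0.01 and 0.05 (SE 0.06 each). Mest, a hydrolase gene whose end lies opposite Copg2, stood at -0.23 and -0.16 (SE 0.34 each), and at -1.06 (adjusted p 0.0187) with shRNF185.1 without batch 2. Within batches 1, 2 and 3, Mest with shRNF185.1 was at -0.31, 1.32 and -1.75, so no common direction was seen. Kcnq1ot1, the RNA that silences the Kcnq1 domain, stood at -0.20 and 0.29 (SE 0.19 each) with shRNF185.1 and shRNF185.3. With a GC and length offset Kcnq1ot1 was called between the hairpins at 0.50 (adjusted p 0.0133, or 0.0251 with the replicate block added). Plagl1, a zinc finger regulator of other imprinted genes, had log2 fold changes of 0.68 and 0.62 (SE 0.30 each, adjusted p 0.0973 and 0.138), and the first was 0.70 (adjusted p 0.0414) with the libraries of a group and batch summed.

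**Figure D4:**
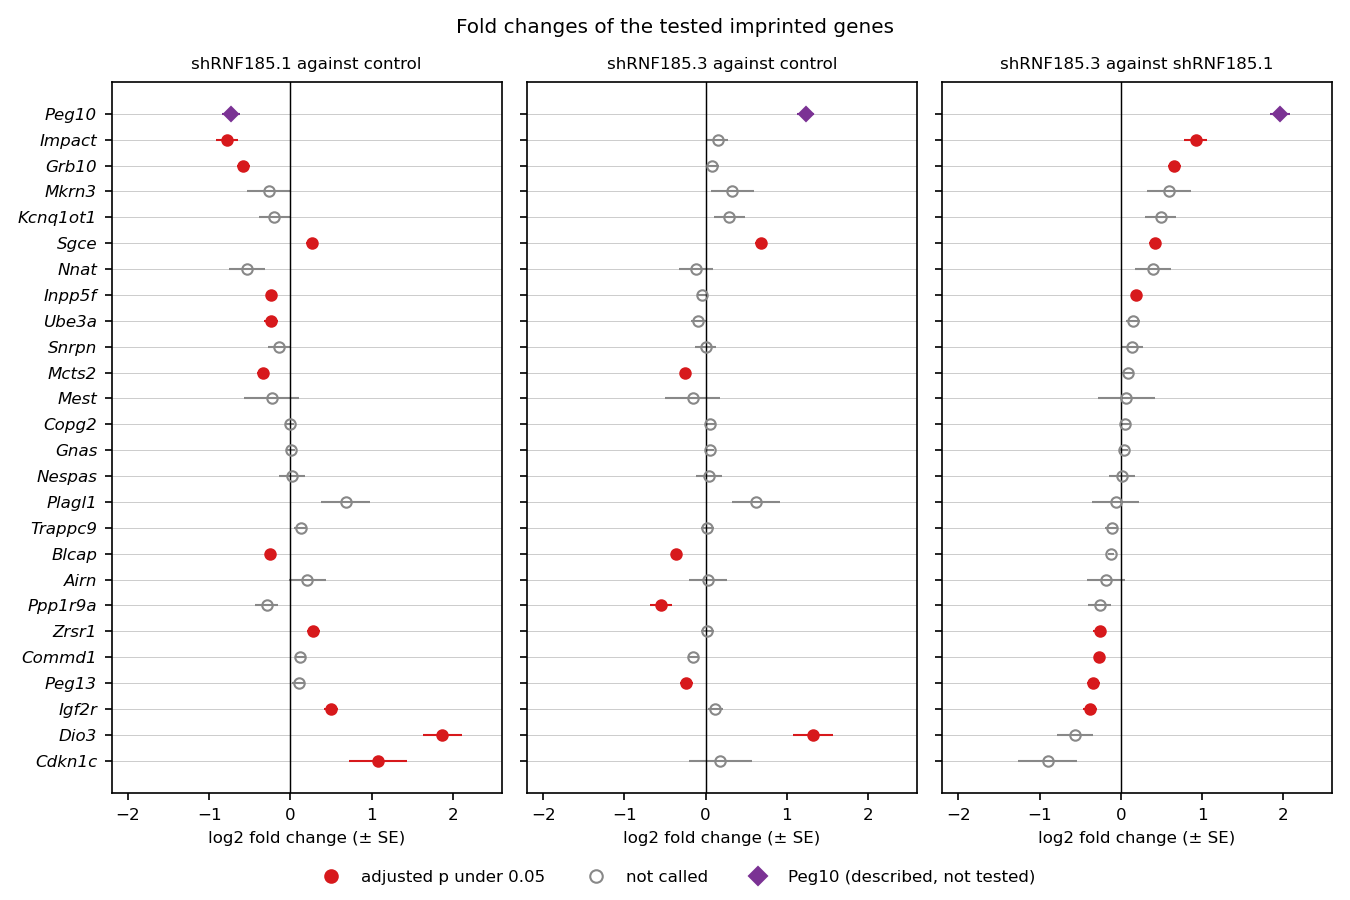
Log2 fold changes with standard errors of the 26 tested imprinted genes in 3 comparisons, ordered by shRNF185.3 against shRNF185.1. Filled circles passed an adjusted p of 0.05, open circles did not, and the diamonds of Peg10 are a description.

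When the hairpins were set against each other, 8 of the 25 genes were called, 4 in each direction. That is 32.0%, against 14.7% of all genes tested (7.72% higher and 6.94% lower with shRNF185.3), with a median log2 fold change of 0.04 against 0.0. Impact, Grb10, Sgce and Inpp5f were higher with shRNF185.3, and Igf2r, Peg13, Commd1 and Zrsr1 lower. Without batch 1, 3 of the 25 were called, and leaving out batch 2 or batch 3 gave 6 and 8, where 5.27%, 8.42% and 12.5% of all genes were called. Over all 3 comparisons, 14 of the 25 genes were called at least once, or 56.0%, where 42.0% of all genes were. Cdkn1c, which would not have passed the count filter without the shRNF185.1 libraries, is among the 14. Rnf185 itself had medians of 5.63 and 5.73 CPM under the 2 hairpins and was not called between them (adjusted p 0.997).

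Genes outside the list were counted from 5 further lists drawn up with earlier results of these data known. Of 23 tested genes from a second list of imprinted genes, 10 were called with shRNF185.1 (6 higher, 4 lower), 11 with shRNF185.3 (7 higher, 4 lower) and 4 between the hairpins. These are 43.5%, 47.8% and 17.4%, where 28.9%, 27.3% and 14.7% of all genes were called. Dcn, which encodes the matrix proteoglycan decorin, fell by 2.11 on the log2 scale with shRNF185.1 (SE 0.29, adjusted p 2.03e-05) from a median of 26.5 to 4.90 CPM, and stood at -0.50 (adjusted p 0.182) with shRNF185.3, where the replicate block gave -0.52 (adjusted p 0.0483). Sfmbt2, a polycomb-related gene of the placenta, rose by 0.94 and 1.06 (adjusted p 0.00101 and 0.000371), from a median of 0.468 CPM to 0.964 and 1.09 CPM. Phactr2, an actin and phosphatase regulator gene, rose by 1.11 with shRNF185.1 (adjusted p 0.00155) from a median of 0.430 to 0.959 CPM. Its difference between the hairpins, -0.75 (adjusted p 0.0372), was lost without batch 1 (adjusted p 0.251) and without batch 2 (adjusted p 0.209). Asb4, Casd1, Pon2 and Pon3, given above among the neighbours of Peg10, are on this list too, so the counts of both share these genes. Sfmbt2, Phactr2 and Asb4 are low, and on log2(CPM + 1) the rises of Sfmbt2 and Phactr2 were 0.40 to 0.45.

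Of 23 tested genes for keeping imprints and for DNA methylation, 9 were called with shRNF185.1 (3 higher, 6 lower), 8 with shRNF185.3 (2 higher, 6 lower) and 5 between the hairpins. The shares were 39.1%, 34.8% and 21.7%, beside the same 28.9%, 27.3% and 14.7% of all genes. Zfp57, whose product guards methylated imprints, fell by 0.46 with shRNF185.1 (SE 0.05, adjusted p 5.25e-07) and by 0.19 with shRNF185.3 (SE 0.05, adjusted p 0.00371, 0.0647 without batch 1). Its medians were 20.9, 15.1 and 18.3 CPM in control, shRNF185.1 and shRNF185.3, and none of the 3 groups overlapped. Nlrp2, a maternal-effect gene of the egg, rose by 0.77 (adjusted p 0.000523) and 2.07 (adjusted p 1.03e-08), from a median of 3.60 CPM to 6.29 and 15.4 CPM. Tet1, an enzyme that oxidises methylcytosine, rose by 0.75 (adjusted p 0.00744, 0.124 without batch 1 and 0.0654 without batch 3) and 1.05 (adjusted p 0.000519). The methyltransferase gene Dnmt3b fell by 0.49 with shRNF185.1 (adjusted p 0.00272, 0.0763 without batch 1 and 0.062 without batch 3). The maintenance methyltransferase gene Dnmt1, named after its values were seen, stood at -0.01 and -0.05 (SE 0.08 each). The methyltransferase gene Dnmt3a, named in the same way, fell by 0.26 and 0.33 (adjusted p 0.0083 and 0.00188).

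Of 18 tested genes of the insulin-like growth factor pathway, a list that holds Igf2r and Grb10, 10 were called with shRNF185.1 (7 higher, 3 lower), 10 with shRNF185.3 (7 higher, 3 lower) and 9 between the hairpins. As shares these are 55.6%, 55.6% and 50%, against 28.9%, 27.3% and 14.7% of all genes. The ligand gene Igf1 rose by 1.54 and 1.27 (SE 0.16 each, adjusted p 1.09e-06 and 1.12e-05), from a median of 6.99 CPM to 19.5 and 15.8 CPM. Its imprinted relative Igf2 was at 4 counts in all, with the limit of shared windows given above. Pappa, a protease of binding proteins, fell by 1.21 with shRNF185.1 (adjusted p 0.00124) and rose by 0.91 with shRNF185.3 (adjusted p 0.00323, 0.0964 without batch 1 and 0.0518 without batch 2), at medians of 0.530, 0.223 and 1.09 CPM. Igfbp7, a binding protein gene, rose by 0.74 (adjusted p 0.00872, 0.0546 without batch 1 and 0.0831 without batch 3) and 1.57 (adjusted p 1.05e-05). Grb14, the relative of Grb10, rose by 0.60 with shRNF185.1 (adjusted p 0.0459) and 1.22 with shRNF185.3 (SE 0.22, adjusted p 0.000329). The first call of Grb14 was lost in 9 of 15 alternatives, with a log2 fold change of 0.11 (adjusted p 0.599) without batch 3 and an adjusted p of 0.0818 without batch 1.

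Peg10 and Rtl1 belong to a family of genes made from retrotransposon gag sequences. Of 6 tested relatives, 2 were called with each hairpin and 1 between the hairpins, or 33.3%, 33.3% and 16.7%, against 28.9%, 27.3% and 14.7% of all genes. Arc, which encodes a capsid-forming protein of the synapse, rose by 1.00 and 1.06 (SE 0.14 each, adjusted p 1.84e-05 and 1.03e-05), from a median of 8.33 CPM to 14.7 and 17.1 CPM. Rtl5 rose by 0.96 (adjusted p 0.0344) and 1.14 (adjusted p 0.0142) at medians of 0.523 to 1.05 CPM. Without batch 3 its adjusted p was 0.44 and 0.138, and without batch 1 that of shRNF185.1 was 0.112. Pnma1 differed between the hairpins by -0.60 (adjusted p 0.0164), which was lost with each batch left out (adjusted p 0.214, 0.0677 and 0.0775).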

How the data were processed

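RNA-seq of 18 libraries (3 groups of 6) was analysed from 2 deposited tables, which the labels name for ComBat-Seq, a batch adjustment for counts. Per the submitters' processing notes, cutadapt 2.3, STAR 2.7.0d, RSEM 1.3.1 and the build mm10 were used. The values the authors deposited as counts are expected counts, since 0.466% are not whole, and they were rounded. The planned test had assumed whole counts and was kept. The deposited CPM are a signal scaled by library, with sums of 969986 to 1026394, and levels are these CPM or, for genes absent from that table, counts over the same library sizes. Whether the adjustment knew the groups is not given in the sources used here. A test after such an adjustment can call too many genes.

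In R 4.3.3, edgeR 4.0.16 (TMM, filterByExpr with a minimum count of 10, quasi-likelihood F test, 1 mean per group) was fitted to 14309 genes of 47643. Benjamini-Hochberg adjustment ran over these, with calls at adjusted p under 0.05. Each standard error is the fold change divided by the root of F. DESeq2 1.42.0 and limma 3.58.1 served among 15 alternatives. On simulated data of 14164 genes for shRNF185.1 against control, 81% of changes of 0.5 (log2) and 95% of 1 were recovered with 13 false calls. For shRNF185.3 against control, with 14188 genes, 82% and 96% were, with 5. The simulation held no batches and no batch adjustment, and it changed few genes, none of them low. These figures therefore do not cover batch-adjusted counts or low genes such as Cdkn1c and Dio3. No pair of libraries in a group looked like a duplicate (chi-square per gene at least 7.64 over 45 pairs). The labels do not say that replicates are separate cultures, so p-values measure the spread between these libraries, which may be technical.

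Positions are from GENCODE M21 on GRCm38, the mm10 build. Members, parental labels and lists were chosen with earlier results of these data known. Members called with a log2 change of 0.5 or more in size were named with full values. From each further list the 4 called genes with the largest change were named, and every tested gene of the Peg10 neighbourhood. A further marker list is not reported here.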

Additional observations from a re-analysis of the deposited data

Results flagged for a closer look

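In 3 of the 78 groups of 6 libraries checked (26 genes in 3 groups), 1 library stood far from the other 5. For Igf2r, shRNF185.3 replicate 5 was at 311 CPM, with the next library at 266 CPM. For Dio3, shRNF185.3 replicate 4 was at 3.20 CPM, with the next at 1.51 CPM. For Zrsr1, control replicate 6 was at 5.68 CPM, with the next lowest at 6.82 CPM. Chance flags about 1 in 20 such groups, or 3.9 here.

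The response to the 2 hairpins differed, by the test of shRNF185.3 against shRNF185.1, in 8 genes. The log2 differences were 0.42 for Sgce, -0.38 for Igf2r, 0.66 for Grb10, -0.34 for Peg13, 0.92 for Impact, -0.26 for Zrsr1, -0.27 for Commd1 and 0.19 for Inpp5f.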

How the results depend on the processing

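The direction of each called difference of the 25 tested imprinted genes other than Peg10 was kept in the alternatives, and 12 of 25 calls passed the threshold in each of them. Calls of imprinted genes without batch 1 numbered 6 with shRNF185.1, against 11 with all libraries, and 3 between the hairpins, against 8. Of genes that keep imprints, 7 were called at least once without batch 1, against 11. Over all genes, 15.5%, 14.9% and 5.27% were called in the 3 comparisons without batch 1, against 28.9%, 27.3% and 14.7% with all libraries. The share of all genes called at least once was 42.0% with all libraries and was not computed for the alternatives. Of the gag-derived genes, 1 was called at least once without batch 3 and 1 with a minimum count of 50, which left 2 to test, against 3. Of all genes, 20.3%, 17.4% and 12.5% were called in the 3 comparisons without batch 3, and 31.9%, 29% and 16.3% with that minimum count. The leave-one-out range over batches was 6 to 14 calls of imprinted genes with shRNF185.1, 4 to 5 with shRNF185.3 and 3 to 8 between the hairpins. Over all genes the called share ranged from 15.5% to 35.7%, 14.9% to 26.8% and 5.27% to 12.5%. For the log2 fold change of Peg10 the leave-one-out range was -0.79 to -0.62, 1.15 to 1.34 and 1.94 to 1.98.

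With the replicate block, 10, 6 and 8 imprinted genes were called in the 3 comparisons, where 26.6%, 25% and 13.8% of all genes were. Same-numbered libraries of different groups correlated at -0.014 on average in how they departed from group means (18 pairs, -0.628 to 0.705, 4 above 0.1), and 2 of 18 libraries were closest to their own number, so by the rule used, that each pair should exceed 0.1, the numbers were not taken as pairs. Other-numbered libraries of the same batch, across groups, averaged -0.434. That lies below the average of the same-numbered pairs, and the rule took no account of it, so some likeness by number remains possible. Over all genes, 4141, 3906 and 2098 calls became 2207, 2120 and 753 without batch 1, and 3906 became 2501 without batch 3. Without batch 2, 4141 became 5119 and 2098 became 1208. On log2(CPM + 1) low genes shrank, Cdkn1c with shRNF185.1 to 0.29 and Pappa to -0.33 and 0.38. Low counts, 186 over all libraries for Cdkn1c, limit such genes.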

Other observations

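In Impact, all 3 odd-numbered libraries of each group were above all 3 even-numbered ones. In Commd1, all 3 odd-numbered libraries of each group were below all 3 even-numbered ones. The labels give the numbers no meaning beyond batch, each batch holds 1 odd and 1 even number of every group, and this pattern was noticed after the values were seen. It was found in 2 of the 25 tested imprinted genes other than Peg10 and was not tested.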
